A study of Mus musculus with 12 samples.

Results

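The genes described here were those whose level separated dormant from growing D2A1 tumor cells in the same direction in both kinds of host. They were selected on the measured values themselves. A gene was taken where its 3 dormant libraries all lay above, or all below, the 3 growing libraries within WT hosts and, in the same direction, within KO hosts, and where the mean log2(TPM + 1) difference was at least 1 in size in each host. TPM is a transcript's share of all transcripts in its library, scaled to a fixed total. Of 54146 genes in the table, 705 met this rule, with 152 higher and 553 lower in dormant cells, and all 705 were among the 13002 tested genes, those reaching 1 TPM in 3 or more libraries. Because the rule used them, the dormant against growing values below are descriptions and carry no test.

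D2A1 is a mouse mammary carcinoma line, here carrying a histone 2B fused to green fluorescent protein and stained with CellVue Claret (CVC), a membrane dye that fades as cells divide. The cells were injected into the tail vein of female mice aged 6 to 8 weeks, and 12 days later, per the study's methods, GFP-positive cells were sorted from lung as CVC-positive (dormant) or CVC-negative (growing), in aliquots of 50 cells. WT hosts carried floxed Tgfbr2, which encodes the type II receptor for TGF-β, without Cre, and KO hosts had lost it in myeloid cells through a Cre recombinase driven from the Lysozyme 2 promoter. Each of the 4 groups (dormant WT, growing WT, dormant KO, growing KO) had 3 libraries, and the tumor cells themselves were of the same line in every group. The labels do not tie libraries to animals, and the study describes the libraries of a group as biological triplicates, with as many mice as libraries. All WT libraries were in library batch 1 and all KO libraries in library batch 2, so that each dormant against growing difference lay within 1 batch while host and batch cannot be told apart.

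The table gives TPM without read counts, so that the depth behind each value is unknown. Between 11325 and 13242 genes were above 0 in dormant WT libraries, against 14352 to 14475 in growing WT, 14770 to 15315 in dormant KO and 13406 to 14063 in growing KO libraries. Dormant WT libraries were the least alike, with a correlation across tested genes of 0.666 to 0.715 between libraries, against 0.866 to 0.882 in dormant KO, 0.914 to 0.922 in growing KO and 0.949 to 0.952 in growing WT libraries. The dormant KO libraries stood apart in another way. Spp1, which encodes osteopontin, had a TPM of 1236, 1509 and 1427 there, against 39951, 32482 and 33468 in dormant WT, 31819, 34069.6 and 33623 in growing libraries of WT hosts and 32636, 31799 and 28979.98 in growing KO libraries, and the 13 genes of an alveolar type 2 list took 4.03% to 4.26% of TPM there and at most 0.0477% elsewhere. Of the 10 genes of a mammary carcinoma line list, Krt18, Krt8, Vim and Cd44 were above 0 in all 12 libraries, and these were lower on average in dormant than in growing KO libraries, by −1.39, −1.58, −1.11 and −1.13, against −0.67, 0.537, −0.379 and 0.295 in WT hosts. The other 6 were higher on average in dormant than in growing KO libraries, by 4.51 for Krt19, 4.48 for Krt7, 1.69 for Krt14, 1.36 for Epcam, 0.752 for Cdh1 and 0.733 for Krt5, of which Krt7, Krt14 and Krt5 were listed at 0 in all 6 WT libraries. The median difference of the 8 tested genes of this list was −0.2 in WT and −0.177 in KO hosts.

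Cells that leave the cycle are known to lower the transcripts of DNA replication and of mitosis. Many of those genes are kept silent outside the cycle by E2F and Rb family proteins and by the DREAM complex, which reaches promoters through E2F sites and the TTTGAA element, while CCAAT boxes bound by NF-Y are common in promoters of mitotic genes. Myeloid cells of the lung, in contrast, are known by lysozyme, Fc receptors and their signalling chains, complement C1q, CC chemokines and MHC class II.

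The promoters of the leading members are shown first, because the cell cycle genes among the lower members are known to be controlled through promoter elements. For each gene they run from 250 bases before to 50 bases after the first start site listed by RefSeq (GRCm38.p6), 5′ to 3′ on the strand of the gene. Capitals mark any match, on either strand, to CCAAT (the NF-Y box), TTTGAA (the DREAM element), TTTGGCGC or TTTCCCGC (E2F-type), CACGTG (the E-box), TGANTCA (AP-1), TGACGTCA (the cyclic AMP element), TTCNNNGAA (STAT), TATAAA (the TATA box) or GGGCGG (Sp1). The 3 higher members with the largest difference in both hosts that had a window in this table were Ms4a4c (chr19:11407411-11407710, plus strand), Ccl6 (chr11:83593038-83593337, minus strand) and Fabp1 (chr6:71199629-71199928, plus strand).
Ms4a4c: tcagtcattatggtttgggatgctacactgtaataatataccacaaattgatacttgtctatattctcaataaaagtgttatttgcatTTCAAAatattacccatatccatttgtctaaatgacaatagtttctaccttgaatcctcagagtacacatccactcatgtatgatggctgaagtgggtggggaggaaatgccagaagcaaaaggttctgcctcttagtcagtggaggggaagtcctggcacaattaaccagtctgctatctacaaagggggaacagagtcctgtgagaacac
Ccl6: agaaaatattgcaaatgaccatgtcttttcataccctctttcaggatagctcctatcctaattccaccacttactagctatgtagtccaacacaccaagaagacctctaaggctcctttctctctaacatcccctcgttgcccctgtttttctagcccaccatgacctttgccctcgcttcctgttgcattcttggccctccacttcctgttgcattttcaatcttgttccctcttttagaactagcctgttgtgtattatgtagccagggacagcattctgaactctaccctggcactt
Fabp1: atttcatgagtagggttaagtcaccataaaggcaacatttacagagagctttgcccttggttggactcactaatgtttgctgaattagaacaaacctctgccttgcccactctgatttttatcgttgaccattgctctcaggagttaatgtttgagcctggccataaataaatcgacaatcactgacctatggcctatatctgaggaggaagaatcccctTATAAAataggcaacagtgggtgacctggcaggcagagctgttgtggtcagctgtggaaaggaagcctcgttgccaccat
Ccl6 held none of the searched letters, Ms4a4c held TTTGAA beginning 162 bases before the start, and Fabp1 held TATAAA beginning 30 bases before it.

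The lower members shown were Kif22 (chr7:127042371-127042670, minus strand), Ibsp (chr5:104299037-104299336, plus strand) and Dsn1 (chr2:157007026-157007325, minus strand), and from the cell cycle lists Ncaph (chr2:127133905-127134204, minus strand) and Cdc6 (chr11:98907901-98908200, plus strand).
Kif22: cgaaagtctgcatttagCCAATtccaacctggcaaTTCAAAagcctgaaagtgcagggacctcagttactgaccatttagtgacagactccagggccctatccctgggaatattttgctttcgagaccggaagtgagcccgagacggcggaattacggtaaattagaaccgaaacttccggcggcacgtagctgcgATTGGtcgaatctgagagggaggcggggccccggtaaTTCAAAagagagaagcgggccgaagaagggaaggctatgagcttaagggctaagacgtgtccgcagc
Ibsp: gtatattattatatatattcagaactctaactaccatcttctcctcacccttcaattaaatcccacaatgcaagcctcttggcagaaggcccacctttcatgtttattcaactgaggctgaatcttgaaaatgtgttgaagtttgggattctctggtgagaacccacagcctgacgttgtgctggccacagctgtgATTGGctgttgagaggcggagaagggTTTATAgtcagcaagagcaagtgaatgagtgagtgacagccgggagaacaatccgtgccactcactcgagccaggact
Dsn1: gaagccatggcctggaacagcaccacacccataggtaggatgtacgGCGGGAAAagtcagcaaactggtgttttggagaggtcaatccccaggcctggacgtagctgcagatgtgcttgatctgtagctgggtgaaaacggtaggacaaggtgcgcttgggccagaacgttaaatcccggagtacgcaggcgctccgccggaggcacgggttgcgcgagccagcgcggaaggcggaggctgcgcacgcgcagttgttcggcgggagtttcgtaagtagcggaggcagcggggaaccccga
Ncaph: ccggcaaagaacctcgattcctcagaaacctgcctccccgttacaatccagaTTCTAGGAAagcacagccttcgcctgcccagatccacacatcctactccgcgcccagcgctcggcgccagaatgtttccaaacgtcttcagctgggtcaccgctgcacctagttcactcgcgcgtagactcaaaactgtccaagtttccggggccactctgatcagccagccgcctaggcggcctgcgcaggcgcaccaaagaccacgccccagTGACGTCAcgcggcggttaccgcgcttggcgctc
Cdc6: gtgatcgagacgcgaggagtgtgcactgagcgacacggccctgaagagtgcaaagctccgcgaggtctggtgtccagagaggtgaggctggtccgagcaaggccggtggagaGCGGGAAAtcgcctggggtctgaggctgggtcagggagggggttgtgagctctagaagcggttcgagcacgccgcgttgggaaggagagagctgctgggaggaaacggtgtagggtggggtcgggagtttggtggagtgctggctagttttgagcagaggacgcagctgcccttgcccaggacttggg
Kif22 held CCAAT beginning 233 and 54 bases before the start and TTTGAA beginning 215 and 17 bases before it. Ibsp held CCAAT beginning 54 and TATAAA beginning 28 bases before the start. Dsn1 and Cdc6 each held the E2F-type letters, beginning 204 and 138 bases before the start. Ncaph held TGACGTCA within the first bases after the start and TTCNNNGAA ahead of it. These matches are descriptions of the letters and no binding was measured.

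The shared set was the smaller part of what separated the states within each host. Among tested genes the rule was met in WT hosts alone or jointly by 688 higher genes (5.29%) and 1835 lower genes (14.1%), and in KO hosts by 1720 higher (13.2%) and 2783 lower genes (21.4%). The 152 shared higher genes (1.17% of tested genes) were 22.1% of the WT list and 8.84% of the KO list, and the 553 shared lower genes (4.25% of tested genes) were 30.1% of the WT list and 19.9% of the KO list. A further 178 genes met the rule in both hosts with opposite directions, of which 90 were higher in WT and 88 lower in WT hosts. The share of lower genes in the shared set, 78.4% with TPM as deposited, was 58.6% after median-ratio scaling (222 higher, 314 lower) and 48.3% after quantile normalization (407 higher, 380 lower). Leaving out dormant WT replicate 2 or replicate 3 gave 268 or 232 higher genes, and leaving out dormant WT replicate 1 gave 869 lower genes. No overlap is easier to meet with 1 library fewer, so such rises, here and in the lists below, are partly built in.

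**Figure D1:**
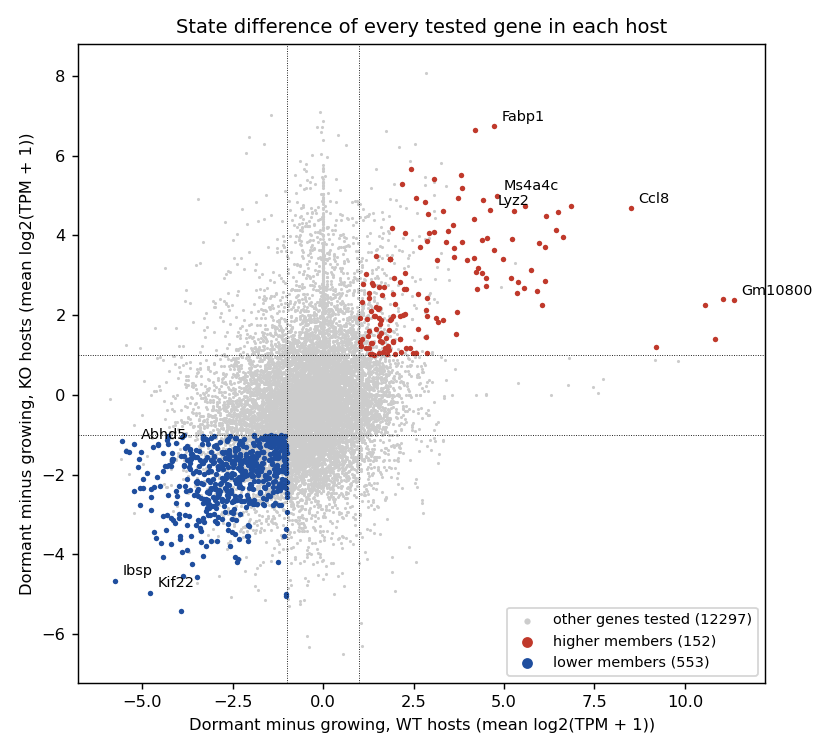
Dormant minus growing difference in mean log2(TPM + 1) of each of the 13002 tested genes, WT hosts on the x axis and KO hosts on the y axis, with dotted lines at the size threshold of 1. The 152 higher members (red) and 553 lower members (blue) fill the corners by construction, and the satellite-type gene Gm10800 lies far to the right, at 11.35 in WT and 2.38 in KO hosts.

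For a background to these counts, limma with Benjamini-Hochberg adjustment over all tested genes called 240 genes higher (1.85%) and 737 lower (5.67%) in WT hosts, and 1080 higher (8.31%) and 1233 lower (9.48%) in KO hosts. With median-ratio scaling, 30.8% of the KO calls were lower in place of 53.3%, and with quantile normalization 49.4% of the WT calls in place of 75.4%. Of the higher members, 90 were called in WT hosts, 103 in KO hosts and 71 in both. Of the lower members, 280 were called in WT hosts, 280 in KO hosts and 182 in both. The rule used the same contrasts, so nothing is read from these counts.

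The lower members were led by genes of chromosome movement and division. Kif22 (GRCm38, chr7:127027729-127042471), which encodes a kinesin that carries chromosomes on the spindle, had a TPM of 0, 0 and 15.2 in dormant and 63.1, 68 and 73.7 in growing libraries of WT hosts, and 0, 1.56 and 10.9 in dormant and 89.5, 105 and 94.5 in growing libraries of KO hosts. It was at most 15.2 in the 6 dormant libraries and at least 63.1 in the 6 growing libraries, a difference in mean log2(TPM + 1) of −4.77 in WT and −4.96 in KO hosts (limma standard error 1.07). Dsn1 (chr2:156995265-157007154), a subunit of the Mis12 kinetochore complex, was listed at 0 in all 3 dormant WT libraries and at 1.83, 0 and 0 in dormant KO libraries, against 21.6, 21.1 and 19 in growing libraries of WT hosts and 20, 20.3 and 28.1 in growing KO libraries. Ncaph, a subunit of the condensin I complex that compacts mitotic chromosomes, had 0.03, 0 and 0 in dormant and 11.9, 13.8 and 17.1 in growing libraries of WT hosts, and 0.48, 0.43 and 0.68 in dormant and 24.3, 16.1 and 29.1 in growing libraries of KO hosts. The groups of both genes were separated by a wide gap in each host. Fbxo5, an inhibitor of the anaphase-promoting complex, was listed at 0 in all 3 dormant WT libraries and at 0.04, 0 and 0 in dormant KO libraries, while growing libraries held 18.5, 25.2 and 21.1 in WT and 16.1, 15.1 and 7.57 in KO hosts.

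Outside the cycle, the most clearly lower member was Ibsp (chr5:104299171-104311469), which encodes bone sialoprotein, a matrix glycoprotein of mineralised tissue. It was listed at 0 in all 3 dormant WT libraries and at 4.47, 1.34 and 0.05 in dormant KO libraries, against 57.3, 54 and 46.2 in growing libraries of WT hosts and 40.3, 67.4 and 76.1 in growing KO libraries. Hmgb3, a chromatin protein with HMG boxes, had 16.5, 0 and 46.1 in dormant and 174, 119.6 and 123 in growing libraries of WT hosts, and 29.5, 1.29 and 16.9 in dormant and 289.98, 217 and 254 in growing libraries of KO hosts. Its dormant libraries varied widely, and the highest of them remained below the lowest growing library of the same host. Hexim2, which holds the elongation factor P-TEFb inactive, had 5.44, 0 and 0.33 in dormant WT and 0.33, 4.08 and 0 in dormant KO libraries, with 23.4, 30.4 and 27.3 in growing libraries of WT hosts and 30.4, 28.6 and 23.2 in those of KO hosts. The WAP-domain gene Wfdc13 was listed at 0 in all 6 dormant libraries and lay between 6.1 and 24.18 in the 6 growing libraries. Akr1c12, an aldo-keto reductase, differed by −4.62 in WT and −3.60 in KO hosts, with 1 dormant KO library at 10.62 and the other 5 dormant libraries at 0.29 or less. The processed pseudogene listed as RP23-341L7.1 (Gm49739 in GENCODE M21) had 0, 0.34 and 0 in dormant and 12.2, 19.4 and 16.2 in growing libraries of WT hosts, and 0, 0 and 0 in dormant and 50.3, 30.6 and 47 in growing libraries of KO hosts. Its reads may be shared with its parent gene, so this level is uncertain.

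**Figure D2:**
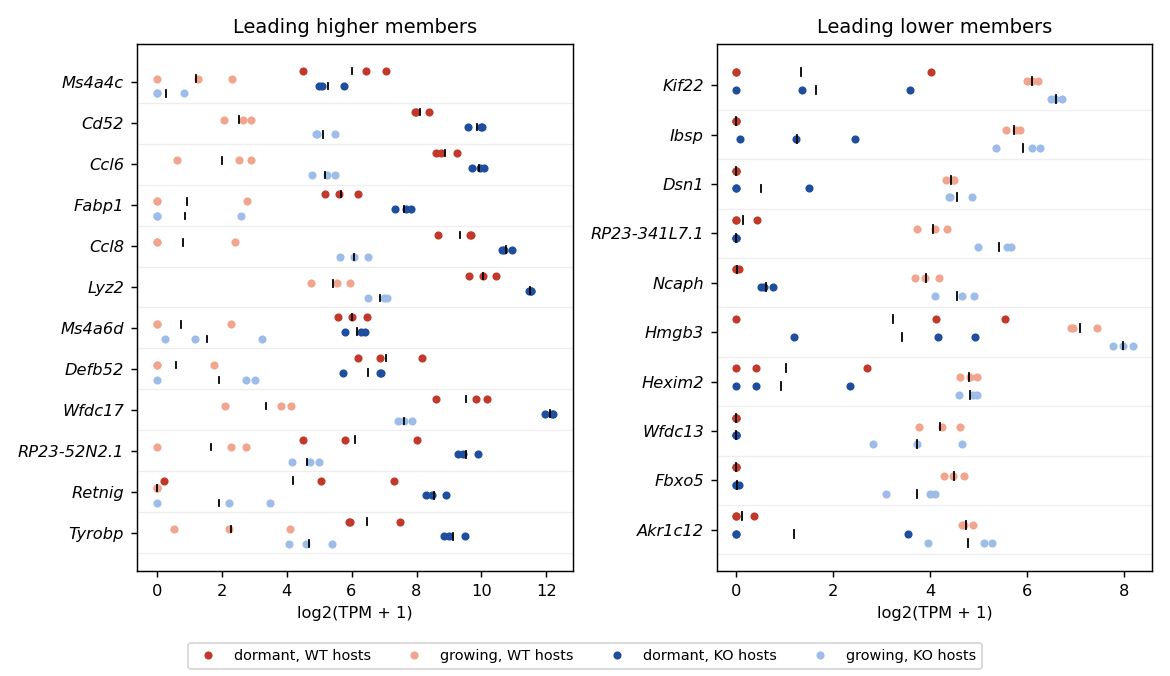
log2(TPM + 1) of 12 higher and 10 lower members among those with the largest value of the smaller of the differences in both hosts, 1 point per library (red shades WT hosts, blue shades KO hosts, the paler shade growing) and a black tick at the mean of 3. Within each host the dormant points lie wholly to the right of the growing points in the left panel and wholly to the left in the right panel, as the rule requires.

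Mitotic genes outside the leading ones were also lower members. Of 49 genes of G2/M and mitosis, all tested, 17 (34.7%) were lower members and 0 higher members, beside 4.25% and 1.17% of all tested genes. The median difference over the whole list was −1.82 in WT and −2.41 in KO hosts, against −0.354 and −0.322 over all tested genes, and 48 of the 49 genes had a lower mean in dormant cells in both hosts, as did 43.0% of tested genes. Cdc20, the activator of the anaphase-promoting complex, had 0, 55.4 and 152 in dormant and 161, 224 and 219 in growing libraries of WT hosts, and 19.6, 29.5 and 32.8 in dormant and 288, 262 and 214 in growing libraries of KO hosts. Its dormant WT libraries spanned nearly the whole range, from 0 to just below the growing libraries. Kif2c, a kinesin that depolymerises microtubules at centromeres, differed by −3.45 in WT and −3.13 in KO hosts, with all dormant libraries at 5.29 or less and all growing libraries at 6.13 or more. The other lower members of the list were Spc25, Kif20a, Nusap1, Anln, Ccnb1, Ccnb2, Birc5, Ube2c, Prc1, Pttg1, Bub1, Cenpa, Cks1b and Tacc3. Without dormant WT replicate 3 the list held 34 lower members in place of 17, and under each of the other settings of normalization, pseudocount, minimum level or left-out library it held between 16 and 23. With a size threshold of 0.58 it held 20, and with a threshold of 2 it held 10.

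With TPM as deposited and all 12 libraries, DNA replication genes were the list with the highest share of lower members. Of 55 genes of replication and the E2F programme, 22 (40%) were lower members and 0 higher members, beside 4.25% and 1.17% of all tested genes, the list's median difference was −2.32 in WT and −2.14 in KO hosts, and 51 of 55 had a lower mean in dormant cells in both hosts. Cdc6, which loads the replicative helicase at origins, had 0, 0 and 0.01 in dormant and 4.42, 21.6 and 8.15 in growing libraries of WT hosts, and 0, 5.71 and 0 in dormant and 22.9, 24.2 and 12.6 in growing libraries of KO hosts. Gins1, a subunit of the GINS complex of that helicase, had 14.5, 0 and 0 in dormant WT and 10.4, 0 and 7.42 in dormant KO libraries, with 39.7, 38.6 and 47.8 in growing libraries of WT hosts and 31.7, 46.4 and 49.2 in those of KO hosts. For both genes every growing library exceeded every dormant library of its host, although single dormant libraries were far from 0. Rrm1, the large subunit of ribonucleotide reductase, had 15.5, 0.02 and 0.18 in dormant and 19.1, 40.9 and 27.8 in growing libraries of WT hosts, and 3.36, 0.68 and 18.5 in dormant and 54.1, 58.6 and 29.5 in growing libraries of KO hosts. In WT hosts its highest dormant library, at 15.5, came close to its lowest growing library, at 19.1. The remaining lower members included the helicase subunits Mcm2, Mcm4 and Mcm6, the origin recognition subunit Orc1, the polymerase subunits Pole and Prim1, the clamp loader subunits Rfc2, Rfc3, Rfc4 and Rfc5, the chromatin assembly subunits Chaf1a and Chaf1b, and the nucleotide enzymes Tk1, Tyms, Rrm2 and Dut. The count was 16 after median-ratio scaling, 29 without dormant WT replicate 3, and between 18 and 23 under the other normalizations, pseudocounts, minimum levels and left-out libraries. With a size threshold of 0.58 it was 23, and with a threshold of 2 it was 14. The shorter mitosis list also held 16 after median-ratio scaling, and 34 without dormant WT replicate 3, so its share was the higher under both settings.

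**Figure D3:**
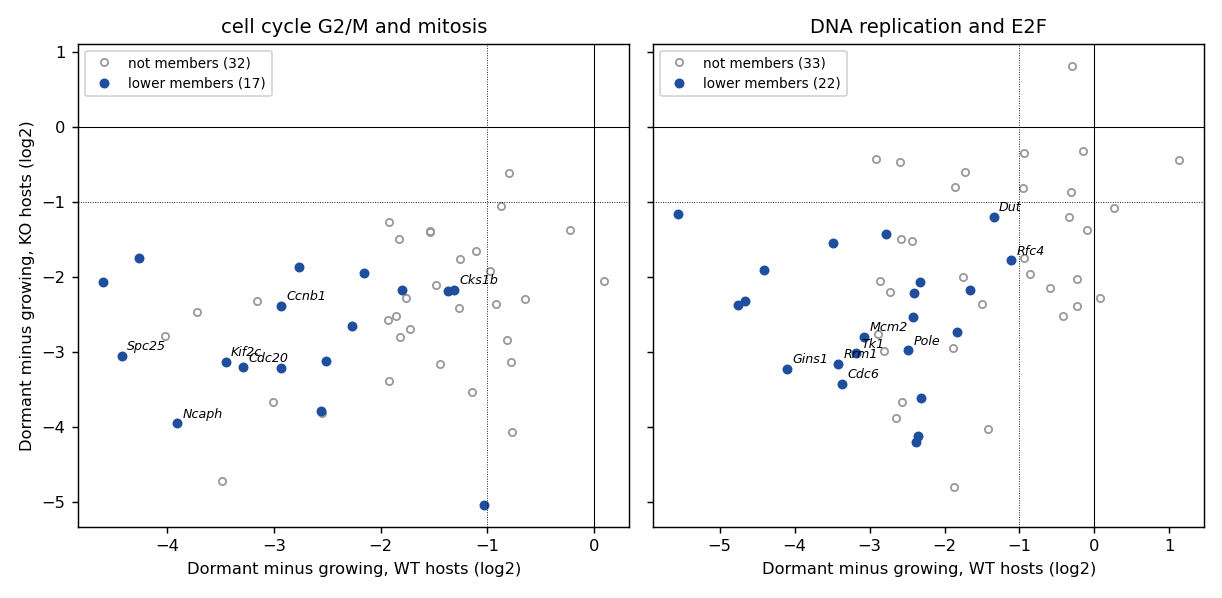
Dormant minus growing difference in mean log2(TPM + 1) for the genes of the G2/M and mitosis list (left, 49 genes) and of the DNA replication and E2F list (right, 55 genes), WT hosts on the x axis and KO hosts on the y axis. Filled points are the 17 and 22 lower members, and most open points, which did not meet the rule, also lie below and to the left of 0.

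Groups named after their values were seen describe the lower members by complex. Of 23 kinetochore, condensin and cohesin-related genes, 12 were lower members (Dsn1, Spc24, Spc25, Ska3, Kntc1, Cenpa, Cenpk, Cenpm, Cenpw, Ncaph, Cdca5 and Espl1), beside 4.25% of all tested genes, with a median difference over all 23 of −2.23 in WT and −2.51 in KO hosts, against −0.354 and −0.322 over all tested genes. Of the 8 subunits of augmin, which nucleates microtubules on the spindle, Haus1, Haus3, Haus4, Haus6 and Haus7 were lower members, beside the same 4.25%, and the median over the 8 was −1.23 in WT and −1.66 in KO hosts. These groups were chosen on these samples and are no independent evidence of their direction.

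Replication histones and chromatin assembly genes gave 5 lower members among 24 tested, 20.8% beside 4.25% of all tested genes. H2afx, the histone variant marked at DNA breaks, had 0.05, 34.4 and 48.1 in dormant and 118, 98.7 and 101 in growing libraries of WT hosts, and 13.2, 33.6 and 15.4 in dormant and 104, 107 and 103 in growing libraries of KO hosts. Hist1h2bb, a replication-dependent histone, was listed at 0 in all 6 dormant libraries and lay between 0.51 and 8.38 in growing libraries, a low level. Hmgb2, another HMG box protein, had 10.9, 12.3 and 76.5 in dormant WT and 126, 135 and 96.2 in dormant KO libraries, against 231, 202 and 194 in growing libraries of WT hosts and 289, 269 and 278 in those of KO hosts. Of 27 CDK inhibitors, cyclins and Rb family genes, 2 (7.41%) were lower members and none was a higher member, beside 4.25% and 1.17% of all tested genes, with a median difference of −0.285 in WT and −0.427 in KO hosts. Cdk4, the partner of D cyclins, had 103, 269 and 124 in dormant and 359, 315 and 316 in growing libraries of WT hosts, and 66.7, 101 and 96.8 in dormant and 385, 309 and 299.7 in growing libraries of KO hosts, and 1 dormant WT library (269) lay much nearer to the growing libraries than the other 2. E2f4, the E2F factor of the DREAM complex, differed by −3.60 in WT and −1.96 in KO hosts and was listed at 0 in 2 of 3 dormant WT libraries.

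MYC targets and ribosome biogenesis genes gave 8 lower and 0 higher members among 47 tested, 17.0% beside 4.25% of all tested genes. Myc itself had 299, 72.1 and 232 in dormant and 446, 411 and 495 in growing libraries of WT hosts, and 36.7, 50.3 and 60.2 in dormant and 310.4, 331 and 355 in growing libraries of KO hosts. Both hosts showed lower dormant values, with 1 dormant WT library at 72.1 and the other 2 above 200. Rrp9, a component of the U3 small nucleolar ribonucleoprotein, had 45.8, 0.04 and 0 in dormant WT and 6.58, 16.7 and 3.62 in dormant KO libraries, against 58.5, 71.9 and 51.4 in growing libraries of WT hosts and 46.5, 57 and 63.4 in those of KO hosts. Umps, an enzyme of pyrimidine synthesis, had 26.6, 0 and 34 in dormant and 59.3, 55 and 68.4 in growing libraries of WT hosts, and 8.7, 13.9 and 12.1 in dormant and 53.8, 83.5 and 74.5 in growing libraries of KO hosts. Its difference in WT hosts was −2.64, but −0.988 without dormant WT replicate 2, the library listed at 0. Shmt1, the cytosolic serine hydroxymethyltransferase, had 7.81, 0 and 0 in dormant and 13.6, 17.7 and 10.1 in growing libraries of WT hosts, and 14, 0 and 4.49 in dormant and 19.4, 25.1 and 14.2 in growing libraries of KO hosts. Its difference in KO hosts was −2.21, and −1.15 without dormant KO replicate 2. The count of this list was 4 after median-ratio scaling and 6 after quantile normalization. Structural ribosomal proteins were not part of the set, with 0 members among 35 genes and median differences of −0.477 in WT and −0.346 in KO hosts.

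Among metabolic lists, the share of lower members was 12% for mTORC1 and amino acid supply (3 of 25), 11.1% for cholesterol and fatty acid synthesis (3 of 27), 7.14% for glycolysis and the hypoxia response (2 of 28) and 2.94% for oxidative phosphorylation (1 of 34), beside 4.25% of all tested genes. The members of the first list were the serine and folate enzymes Mthfd2, Phgdh and Psph. Mthfd2, the mitochondrial folate dehydrogenase, was listed at 0 in all 3 dormant WT libraries and had 7.9, 3.59 and 8.16 in dormant KO libraries, against 32.1, 28 and 31.9 in growing libraries of WT hosts and 16.6, 33 and 48.4 in those of KO hosts. Phgdh, the first enzyme of serine synthesis, had 23, 45.8 and 76.1 in dormant and 114, 111 and 89.9 in growing libraries of WT hosts, and 6.55, 14.4 and 4.14 in dormant and 172, 144 and 143 in growing libraries of KO hosts. Its difference was smaller in WT than in KO hosts, at −1.25 in WT and −4.19 in KO hosts. The cholesterol and fatty acid members were Fdft1 (squalene synthase), Elovl6 (a fatty acid elongase) and Mvk (mevalonate kinase), and the oxidative phosphorylation member was Ndufv1, a subunit of complex I. The smaller of the differences in both hosts was −1.15 for Ndufv1 and −1.08 for Mvk, and it was below the size threshold with median-ratio scaling (−0.627 and −0.524) and with quantile normalization (−0.736 and −0.877). Of glycolysis, Pgam1 (phosphoglycerate mutase) differed by −1.23 in WT and −1.57 in KO hosts, and Pfkl, liver phosphofructokinase, had 13.2, 5.13 and 0 in dormant and 26.1, 22.9 and 21.4 in growing libraries of WT hosts, and 2.29, 8.31 and 5.69 in dormant and 36.3, 41.9 and 47.8 in growing libraries of KO hosts. The difference of Pfkl in WT hosts was −2.46, and −1.39 without dormant WT replicate 3. Heat shock and folding genes gave 2 lower (10.5%) and 1 higher member (5.26%) among 19 tested, beside 4.25% and 1.17% of all tested genes. Dnajb1, a cochaperone of HSP70, had 176, 204 and 188 in dormant and 539, 576 and 563 in growing libraries of WT hosts, and 56.1, 81.4 and 49.7 in dormant and 251, 275 and 245 in growing libraries of KO hosts, and Tcp1, a subunit of the chaperonin CCT, differed by −3.66 in WT and −1.62 in KO hosts, while Cryab, the small heat shock protein αB-crystallin, was higher by 1.05 in WT and 1.22 in KO hosts. The unfolded protein response, the glutathione and oxidant defence list and the epithelial and mesenchymal list had 0 members each. Other lower members of programme lists were Csf3 (granulocyte colony-stimulating factor), Cxcl5 (a neutrophil chemokine), Ifit1 (an interferon-induced RNA-binding protein), Ier3 (an immediate early gene) and, for antigen presentation, H2-M3 and Psmb8. Csf3 had 0.14, 0 and 0 in dormant and 14.2, 22.8 and 12.5 in growing libraries of WT hosts, and 3.71, 0 and 4.43 in dormant and 17.6, 20.8 and 11.6 in growing libraries of KO hosts.

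**Figure D4:**
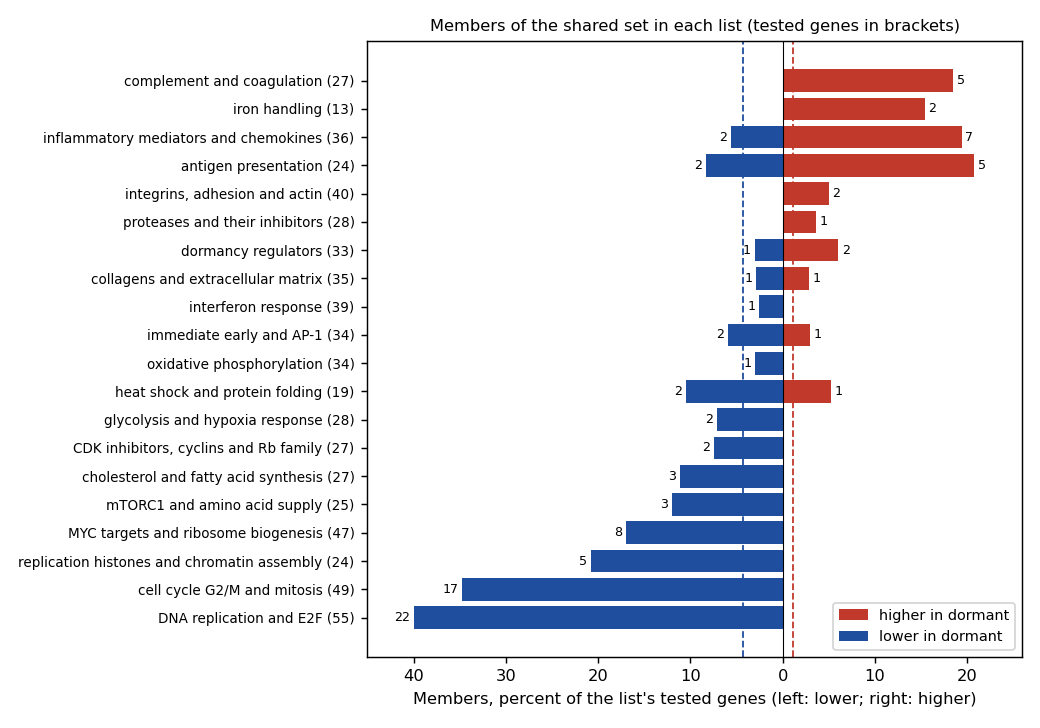
Members as a percentage of the tested genes of each programme list that held at least 1 member, to the left for lower (blue) and to the right for higher members (red), with the number of members at each bar. Dashed lines mark the share among all tested genes, 4.25% lower and 1.17% higher, and the longest bars are DNA replication (40% lower) and antigen presentation (20.8% higher).

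Of the 12 leading higher members, Lyz2 and Tyrobp were on the macrophage and monocyte list and Retnlg on the neutrophil list. Ms4a4c (chr19:11404770-11427246), of the membrane-spanning 4A family, had a TPM of 133, 86.4 and 21.6 in dormant and 1.44, 3.98 and 0 in growing libraries of WT hosts, and 33, 53.5 and 30.8 in dormant and 0, 0.8 and 0 in growing libraries of KO hosts. All dormant libraries were at 21.6 or more and all growing libraries at 3.98 or less, a difference of 4.80 in WT and 5.0 in KO hosts (limma standard error 0.77). Cd52 (chr4:134082448-134095082), a small glycoprotein anchored on leukocytes, had 335, 248 and 254 in dormant and 6.47, 5.36 and 3.17 in growing libraries of WT hosts, and 1010.2, 763 and 1038 in dormant and 29.9, 44 and 29.3 in growing libraries of KO hosts. Lyz2 (chr10:117277331-117282321), lysozyme of macrophages, granulocytes and alveolar type 2 cells, had 782, 1407 and 1049 in dormant and 45.9, 61.4 and 26 in growing libraries of WT hosts, and 2918, 2944 and 2833 in dormant and 128, 90.8 and 135 in growing libraries of KO hosts. The dormant level of both was higher in KO than in WT hosts, and so was the growing level. The Cre of the KO hosts was driven from the Lyz2 promoter, and the level was high in dormant libraries of both hosts. Of 7 genes of Fc receptor signalling, grouped after their values were seen, Fcer1g, Fcgr2b, Fcgr3, Lilrb4a and Tyrobp were higher members, beside 1.17% of all tested genes. Tyrobp, the DAP12 signalling adaptor of myeloid receptors, had 180.4, 61.4 and 59.7 in dormant and 0.44, 16.3 and 3.66 in growing libraries of WT hosts, and 721, 516 and 458 in dormant and 23.4, 15.9 and 41.3 in growing libraries of KO hosts. Ctss, the endosomal protease cathepsin S, had 535, 363 and 337 in dormant WT and 788, 857 and 815 in dormant KO libraries, against 0.49, 6.32 and 8.32 in growing libraries of WT hosts and 54.8, 43.4 and 39.3 in those of KO hosts.

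Fabp1, a fatty acid binding protein known from liver and gut, had 35.2, 72.7 and 47.6 in dormant and 0, 5.92 and 0 in growing libraries of WT hosts, and 226, 202 and 160.2 in dormant and 5.03, 0 and 0 in growing libraries of KO hosts. Wfdc17, a WAP-domain protein, had 388, 903 and 1163 in dormant WT and 4684, 3975 and 4603 in dormant KO libraries, against 13.2, 16.7 and 3.33 in growing libraries of WT hosts and 194, 229 and 171 in those of KO hosts. In KO hosts even its growing libraries, at 171 to 229, held much more than those of WT hosts, at 3.33 to 16.7. Ms4a6d, another membrane-spanning 4A gene, differed by 5.26 in WT and 4.6 in KO hosts, the defensin-type gene listed as Defb52 (Gm15056 in GENCODE M21) by 6.49 in WT and 4.58 in KO hosts, and the noncoding RP23-52N2.1 (AW112010 in GENCODE M21) by 4.43 in WT and 4.90 in KO hosts. Retnlg, which encodes the resistin-like protein of neutrophils and is spelled Retnig in the table, had 32.5, 0.16 and 159 in dormant and 0, 0 and 0 in growing libraries of WT hosts, and 479.8, 311 and 353 in dormant and 0, 3.72 and 10.3 in growing libraries of KO hosts. Dormant WT libraries ran from 0.16 to 159, and the growing WT libraries were listed at 0.

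Of 36 tested inflammatory mediators and chemokines, 7 (19.4%) were higher members, beside 1.17% of all tested genes, and 2 (5.56%) were lower members. The list as a whole had a median difference of −0.035 in WT and 2.28 in KO hosts, and 12 of its 36 genes had a higher mean in dormant cells in both hosts. Ccl6 had 391, 609 and 434 in dormant and 0.54, 6.53 and 4.8 in growing libraries of WT hosts, and 994, 831 and 1072 in dormant and 37, 44.1 and 26.6 in growing libraries of KO hosts. Ccl8, a monocyte attractant outside that list, was listed at 0, 4.36 and 0 in growing WT libraries and at 405, 799 and 819.9 in dormant WT libraries, with 1587, 1649.97 and 1955 in dormant and 89.3, 65.8 and 49.2 in growing libraries of KO hosts. Ccl9 differed by 3.62 in WT and 3.67 in KO hosts. Il1b, the cytokine interleukin 1 beta, had 15.8, 57.2 and 59.6 in dormant WT and 115, 51.6 and 63.3 in dormant KO libraries and at most 5.74 in growing libraries. In the annotation, 2 runs of neighbouring higher members with chemokine genes (gaps of at most 200 kb) lay on chromosome 11. Ccl7, Ccl12 and Ccl8 were 3 of 4 tested genes between 82045712 and 82116799, and Ccl5, Ccl9, Ccl6, Ccl4 and Wfdc17 were 5 of 6 between 83525778 and 83706268. The other runs of 3 or more higher members were Fcgr2b, Fcgr3 and Fcer1g on chromosome 1 (3 of 8 tested genes), C1qa, C1qb and C1qc on chromosome 4 (3 of 3), Ms4a4c, Ms4a6b and Ms4a6d on chromosome 19 (3 of 6), H2-Ab1, H2-Aa, H2-Eb1 and H2-Ea-ps on chromosome 17 (4 of 4), and Rnu3b1 to Rnu3b4 on chromosome 11 (4 of 4). Closely similar members of such gene families may share reads.

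Genes of class II antigen presentation were higher members, with Ctss, H2-Aa, H2-Eb1, H2-Ab1 and Cd74 among 24 tested genes of the antigen presentation list (20.8%, beside 1.17% of all tested genes), whereas the class I gene H2-M3 and the immunoproteasome subunit Psmb8 were lower members (8.33%, beside 4.25%). The whole list had a median difference of 0.109 in WT and −0.238 in KO hosts, with 9 genes higher and 9 lower on average in both hosts. H2-Aa, a class II chain, had 518, 323 and 235 in dormant and 7.65, 14 and 15.2 in growing libraries of WT hosts, and 763, 883 and 958 in dormant and 62.8, 89.3 and 57.4 in growing libraries of KO hosts. H2-Eb1, another, had 451, 448 and 197 in dormant WT and 679, 792 and 664 in dormant KO libraries, against 12.8, 23.8 and 19.7 in growing libraries of WT hosts and 74.7, 60.6 and 61.5 in those of KO hosts. Every dormant library exceeded every growing library, also across hosts. Psmb8 had 365, 163 and 414 in dormant and 614, 637 and 540.1 in growing libraries of WT hosts, and 290.2, 396 and 342 in dormant and 736, 909 and 823 in growing libraries of KO hosts, and neither lower member of this list was left after median-ratio scaling or without dormant WT replicate 2, and 1 was left without growing WT replicate 2. Complement and coagulation gave 5 higher members of 27 tested (18.5%, beside 1.17% of all tested genes), and 8 without dormant WT replicate 2. C1qa, a chain of the first complement component, had 323, 172 and 161 in dormant and 5.99, 2.25 and 1.59 in growing libraries of WT hosts, and 117, 141 and 129 in dormant and 14.1, 18.9 and 10.1 in growing libraries of KO hosts. C1qc differed by 5.35 in WT and 2.55 in KO hosts, and Thbd (thrombomodulin, a thrombin receptor) had 1.73, 25.1 and 1.72 in dormant and 0.09, 0.46 and 0.12 in growing libraries of WT hosts, and 44.3, 40.4 and 45 in dormant and 2.22, 0.96 and 1.99 in growing libraries of KO hosts. The difference of Thbd in WT hosts was 2.25, and 1.17 without dormant WT replicate 2.

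A macrophage and monocyte list of 24 genes, 21 of them tested, held 12 higher members (57.1%) and no lower member, beside 1.17% and 4.25% of all tested genes. Its median difference was 3.61 in WT and 3.12 in KO hosts. Summed over the list, it took 0.291% to 0.336% of TPM in dormant WT and 0.641% to 0.69% in dormant KO libraries, against 0.0123% to 0.0168% in growing libraries of WT hosts and 0.0401% to 0.0452% in growing KO libraries. Not all defining markers were high. Adgre1 (F4/80) was listed at 9.17, 0 and 0.77 in dormant WT and 0.37, 0.04 and 4.36 in dormant KO libraries, Csf1r at 3.59, 0 and 0.14 and at 2.62, 2.28 and 6.97, and Siglecf was at 0 in 2 of 3 dormant WT libraries. Ly6c2, a marker of inflammatory monocytes, was listed at 0 in all 3 dormant WT libraries against 5.33, 3.02 and 1.72 in growing WT libraries, a difference of −2.04, while it was higher by 3.57 in KO hosts. Ptprc, which encodes the leukocyte antigen CD45 and is named after its value was seen, had 46.6, 46.4 and 13.5 in dormant and 0, 0.05 and 0 in growing libraries of WT hosts, and 23.4, 25.4 and 24.9 in dormant and 0.59, 1.67 and 2.26 in growing libraries of KO hosts. The sort was on tumor cell fluorescence. In bulk libraries of sorted cells, more cells of a type and more RNA per cell cannot be told apart, and the part of other cells' RNA in these values was not tested.

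Of the neutrophil list of 17 genes, Retnlg, S100a9, Il1b and S100a8 were higher members among 11 tested genes (36.4%, beside 1.17% of all tested genes), and the median difference of the tested genes was 0.354 in WT and 3.99 in KO hosts. The other genes did not share one direction. Camp and Elane were listed at 0 in all 12 libraries, Ltf and Ly6g at 0 in all dormant WT libraries and Csf3r there at no more than 0.08. Lcn2 differed by −0.758 in WT and 3.99 in KO hosts, Ngp by −0.597 and 3.87, and Mmp9 by 0.354 and −3.32. Stfa2l1, which did not meet the rule, was higher on average by 3.41 in WT and 5.24 in KO hosts. The list, in which S100a8 and S100a9 were the most abundant genes, took 0.0594% to 0.103% of TPM in dormant WT and 0.454% to 0.507% in dormant KO libraries, against at most 0.00979% and 0.0153% in growing libraries of WT hosts and KO hosts. S100a9, a subunit of calprotectin, had 184, 327 and 22 in dormant and 0.64, 17 and 14.9 in growing libraries of WT hosts, and 1140.2, 1092 and 987 in dormant and 35.6, 22 and 29.1 in growing libraries of KO hosts. Its dormant WT libraries were widely spread, and the lowest of them, at 21.96, stood close to the highest growing WT library, at 17.0. Ccl5 was the only member of the T and NK cell list and Inmt, a methyltransferase abundant in lung, of the fibroblast and pericyte list. Inmt had 43.4, 177 and 38.1 in dormant and 7.43, 12.1 and 5.41 in growing libraries of WT hosts, and 559, 501 and 623 in dormant and 18.9, 62.2 and 29.1 in growing libraries of KO hosts. The lists for alveolar type 1 and type 2 cells, club and ciliated cells, endothelium, mesothelium, dendritic, B and plasma, erythroid, platelet and squamous cells, and the mammary line itself, held 0 members. Some of these lists were nonetheless high in dormant KO libraries, where the erythroid list took 5.09% to 5.63% of TPM, the mesothelium list 1.34% to 1.48% and the endothelial list 0.175% to 0.197%, and their part in the higher members of KO hosts was not tested. Of the 152 higher members, 134 were on none of the cell type lists. The lists were short, and Cd52, Ccl6, H2-Aa and Fcgr2b were among the 134, so this is no count of genes particular to tumor cells.

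Of 13 tested iron handling genes, 2 (15.4%) were higher members, of 40 genes of integrins, adhesion and actin likewise 2 (5.0%), and of 35 genes of collagens and matrix 1 (2.86%), beside 1.17% of all tested genes. Tmsb4x, thymosin beta 4, which binds actin monomers, had 1131, 1464 and 1315 in dormant and 109, 92.6 and 92.2 in growing libraries of WT hosts, and 17113, 15482 and 17941 in dormant and 582, 487 and 593 in growing libraries of KO hosts. Its dormant KO libraries lay far above its dormant WT libraries, and its growing KO libraries above its growing WT libraries. Tln1 (talin, which links integrins to actin) differed by 1.54 in WT and 2.18 in KO hosts. Trf (transferrin) had 45.5, 89.3 and 41.3 in dormant WT and 166, 284 and 212 in dormant KO libraries, against 0.07, 1.24 and 0.02 in growing libraries of WT hosts and 11.6, 48.2 and 45.2 in those of KO hosts, and Ncoa4, the receptor that delivers ferritin for breakdown, differed by 1.25 in WT and 1.47 in KO hosts. Col4a2, a chain of basement membrane collagen, differed by 1.86 in WT and 1.87 in KO hosts at levels of at most 10.33 TPM.

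Among 33 tested genes held to regulate tumor dormancy, 2 (6.06%) were higher members and 1 (3.03%) a lower member, beside 1.17% and 4.25% of all tested genes. Bhlhe41 (also called DEC2), a repressor of the circadian family, had 12.6, 52.4 and 43 in dormant and 9.31, 10.3 and 8.87 in growing libraries of WT hosts, and 13.3, 10.1 and 13.9 in dormant and 3.13, 4.16 and 3.43 in growing libraries of KO hosts. All 3 dormant libraries of each host lay above the growing ones, by 1.60 in WT and 1.55 in KO hosts. Klf2, a Krüppel-like factor of quiescent cells, had 18.7, 32.8 and 41.8 in dormant and 13.2, 9.74 and 12.7 in growing libraries of WT hosts, and 80.3, 64 and 62.1 in dormant and 9.37, 15.3 and 11.5 in growing libraries of KO hosts. Sox2 was a lower member at very low levels, listed at 0 in all dormant WT libraries and at 1.25, 0 and 0.14 in dormant KO libraries, with 0.54, 1.81 and 4.27 in growing libraries of WT hosts and 1.36, 1.5 and 2.75 in those of KO hosts. Nr2f1, an orphan nuclear receptor, failed the rule, with 0, 0 and 0 in dormant and 0.57, 0.03 and 3.11 in growing libraries of WT hosts, and 0, 0 and 0.04 in dormant and 5.66, 0 and 0 in growing libraries of KO hosts. Mapk14, which encodes p38α, had a difference of −1.29 in WT and 0.67 in KO hosts, Tgfb2 of −1.61 in WT and 1.92 in KO hosts and Gas6 of −0.0022 in WT and 3.42 in KO hosts, so that none of them was lower or higher by the rule in both hosts.

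Repeat-type and nuclear transcripts were grouped after their values were seen. Of 13 satellite-type genes, all tested, 5 were higher members, beside 1.17% of all tested genes, with median differences over the 13 of 9.16 in WT and 0.847 in KO hosts. Of 20 entries for nuclear and small RNAs, 13 of them tested, 9 were higher members, beside the same 1.17%, and 11 were not, among these Neat1, Xist, Kcnq1ot1, Rmrp, Rpph1, mt-Rnr1 and a further set of entries named Rnu3b1 to Rnu3b4. Gm10800 and Gm10801 (chromosome 2), and Gm26870, Gm21738 and Gm10719, are predicted genes over satellite-type repeats. Gm10800 had 7582, 14906 and 10804 in dormant and 3.97, 2.77 and 2.64 in growing libraries of WT hosts, and 16.1, 21.9 and 14.1 in dormant and 1.88, 2.31 and 3.38 in growing libraries of KO hosts, and Gm26870 had 9239, 18061 and 13754 in dormant and 4.62, 5.89 and 5.19 in growing libraries of WT hosts, and 20.5, 31.2 and 15.8 in dormant and 2.15, 4.49 and 3.42 in growing libraries of KO hosts. The dormant WT libraries stood alone, while the difference in KO hosts was small by comparison. Together the 5 genes took 2.3% to 4.53% of TPM in dormant WT libraries and at most 0.00854% in any other library. Reads over such repeats fit many places in the genome, and Gm26870 overlaps 9 predicted genes on the other strand, so that the split between these genes is uncertain. Malat1, a long nuclear RNA, had 16692, 26990.3 and 29169.96 in dormant and 3396, 6139.6 and 5233 in growing libraries of WT hosts, and 5689, 10828 and 6038 in dormant and 809, 752 and 2395 in growing libraries of KO hosts. RP24-458F14.4 (Gm37376 in GENCODE M21) lies within Malat1 on the other strand, and reads of the pair cannot be told apart without strand. The U3 small nucleolar RNA genes Rnu3b1 to Rnu3b4, near-identical copies with the same values in every library, each differed by 1.85 in WT and 3.42 in KO hosts, and the ribosomal RNA genes Rn18s-rs5 and mt-Rnr2 differed by 1.11 in WT and 2.78 in KO hosts and by 1.02 in WT and 1.94 in KO hosts.

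Summed over the set, the 147 higher members other than the satellite-type genes took 5.03% to 6.77% of TPM in dormant WT and 7.81% to 8.26% in dormant KO libraries, against 1.31% to 1.47% in growing libraries of WT hosts and 0.719% to 1.19% in growing KO libraries. The 553 lower members took 1.55% to 1.94% and 1.6% to 1.84% in dormant libraries of WT and KO hosts, against 4.85% to 4.88% and 5.53% to 5.7% in growing libraries. The direction of these sums follows from the rule.

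**Figure D5:**
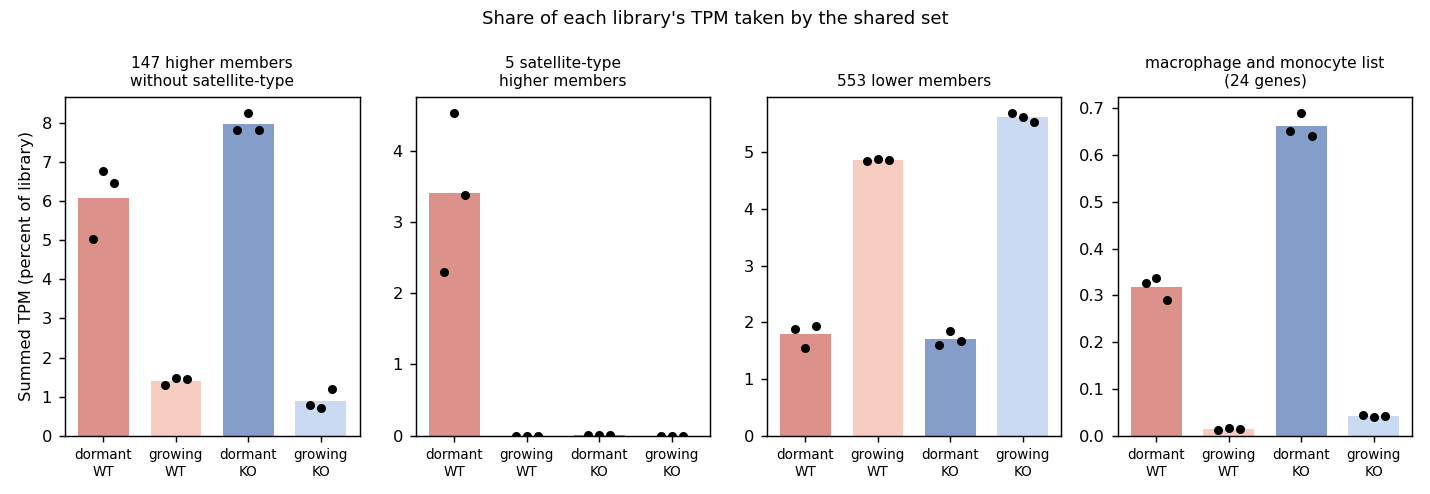
Share of each library's TPM, in percent, taken by 4 gene sets, with 1 point per library and a bar at the mean of 3. The 553 lower members take 4.85% to 5.7% in growing and 1.55% to 1.94% in dormant libraries, while the 5 satellite-type genes are visible only in dormant WT libraries, at 2.3% to 4.53%. The direction within each host follows from the rule for the sets of members.

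Members were not uniform in level. Lower members had a median of the group mean of 25.0 TPM in growing libraries of WT hosts and 29.1 TPM in growing KO libraries, against 5.85 and 6.49 over all tested genes, and 3.4 and 6.54 TPM in the dormant libraries. Of the 553, 119 were listed at 0 in all 3 dormant WT libraries, 31 in all 3 dormant KO libraries and 24 in all 6. The rule allows no lower member at 0 in all growing libraries of a host. A 0 in at least 1 dormant WT library was listed for 62.2% of the lower members and for 51.4% of all tested genes, and a 0 in at least 1 dormant KO library for 25.5% and 17.1%. Higher members had medians of 37.5 TPM in dormant WT and 41.2 TPM in dormant KO libraries and of 3.46 and 5.74 TPM in growing libraries, and 3 of them were listed at 0 in all 6 growing libraries. Across both hosts at once, 99 higher and 433 lower members kept all 6 dormant libraries apart from all 6 growing libraries. The rule already kept the states apart within each host, and the share of all tested genes apart across hosts was not counted. Nothing is therefore read from these counts.

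The size of the difference was also uneven. Higher members had a median difference of 2.42 in WT and 2.54 in KO hosts, and 69 of 152 had the larger difference in KO hosts. Lower members had medians of −2.38 and −1.92, and 195 of 553 had the larger size in KO hosts. A size of at least 3 in both hosts was reached by 40 higher and 39 lower members, and of at least 4 by 13 higher and 3 lower members. Of the 83 members that the naming rule chose, 18 had a difference in 1 host that moved by over 1.5 times when 1 library was left out, and for 8 of them it was then below 1 in size. Dormant WT replicate 2 moved 8 of the 18, among them Hmgb3 (−3.88 to −2.26), Tcp1 (−3.66 to −1.74), H2-M3 (−2.11 to −0.754), Myc (−1.39 to −0.768), Serpinf1 (−1.03 to −0.599) and Psmb8 (−1.03 to −0.615). Dormant WT replicate 1 moved Cdc20 (−3.29 to −1.11), H2afx (−3.12 to −1.35), Phgdh (−1.25 to −0.809) and Ier3 (−1.41 to −0.804), and dormant WT replicate 3 moved Retnlg (4.20 to 2.64), Psph (−2.31 to −0.395) and Pfkl. In KO hosts, dormant KO replicate 2 moved Gins1 (−3.22 to −2.12) and Shmt1, and dormant KO replicate 1 moved Ifit1 (−3.08 to −2.02). With median-ratio scaling, the smaller difference was below 1 in size for 14 of the 83, all lower members (Hmgb2, Sox2, Psph, Pgam1, Mvk, Ndufv1, Ier3, H2-M3, Psmb8, Lyar, Dcakd, Anapc15, Abhd5 and Serpinf1). The spread between the 3 dormant WT libraries had a median SD of 0.694 for higher and 0.717 for lower members on the log2(TPM + 1) scale, against 0.999 over tested genes, and in growing WT libraries of 0.434 and 0.286 against 0.342. The rule of no overlap favours genes of small spread within groups, so the smaller values of members are not a result. Just inside the size threshold lay Lyar (−1.0 in WT and −2.55 in KO hosts) and Dcakd (−1.0 in WT and −2.46 in KO hosts), and just outside lay Zfml (1.52 in WT and 0.995 in KO hosts) and Gmps (−0.988 in WT and −3.40 in KO hosts), which also had no overlap between states in either host. In all, 1299 of the 54146 genes in the table had no overlap in both hosts in the same direction at any size.

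Promoter letters were counted in 108 windows of higher and 411 windows of lower members, beside 9333 windows of tested genes with an entry. CCAAT was present in 25.0% of higher and 44.5% of lower windows, and in 39.3% of all windows. In the 33 windows of lower members from the mitosis and replication lists it reached 57.6%, and in the 53 windows of those lists' other genes 73.6%. TTTGAA was present in 13% of higher and 17.5% of lower windows, against 12.2% of all, and in 30.3% of the lower members of those lists against 49.1% of the lists' other genes. The E2F-type letters TTTGGCGC or TTTCCCGC were in 2.78% of higher, 6.08% of lower and 3.18% of all windows, and in 9.09% of the lower members of those lists against 22.6% of the lists' other genes. For these 3 motifs alike, the other genes of the lists had the higher share. TATAAA was in 14.8% of higher, 7.3% of lower and 7.45% of all windows, and GGGCGG in 49.1%, 63.3% and 63.9%. CACGTG was found in 6.48%, 11.7% and 10.1%, TGACGTCA in 0.926%, 4.87% and 3.33%, TGANTCA in 6.48%, 3.65% and 5.18%, and TTCNNNGAA in 2.78%, 5.84% and 7.14% of higher, lower and all windows. The median G and C content was 57.3% in higher, 60% in lower and 60.7% in all windows, and these shares were not tested.

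By annotation, 137 of 152 higher and 512 of 552 annotated lower members were protein-coding (90.1% and 92.8%, against 87.5% of tested genes), and 18 lower members and 1 higher member were pseudogenes. The median gene span was 17.9 kb for higher, 14.0 kb for lower and 19.2 kb for all tested genes, and the median of the longest transcript was 2.68, 2.31 and 2.96 kb.

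Whether the size of the state difference differed between hosts was asked with the interaction of the limma fit, the difference in KO minus that in WT hosts. The interaction is made of the same differences that the rule used, so its adjusted p-values for members are not free of that selection. It was called for 38 of the 705 members (5.39%), against 1312 of 13002 tested genes (10.1%); the rule keeps genes with 1 direction in both hosts, so the lower share is not a result. Of the 20 higher members called, 14 had the larger difference in WT hosts, and of the 18 lower members called, likewise 14. The 3 satellite-type genes Gm10801 (−9.43, standard error 0.644, adjusted p = 1.45e-05), Gm10800 (−8.97, 0.526, adjusted p = 3.86e-06) and Gm26870 (−8.64, 0.538, adjusted p = 5.98e-06) had the largest interactions. Among lower members, Anapc15, a subunit of the anaphase-promoting complex, was listed at 0 in all dormant WT libraries and had 10.1, 28.3 and 24.2 in dormant KO libraries, against 30.9, 48.5 and 51.9 in growing libraries of WT hosts and 82.9, 37.9 and 45.1 in those of KO hosts (interaction 4.05, limma adjusted p = 0.00494). Abhd5, the coactivator of adipose triglyceride lipase, was listed at 0 in all dormant WT libraries and had 19, 18.2 and 12.3 in dormant KO libraries, against 41.5, 34.5 and 33.9 in growing libraries of WT hosts and 40.5, 40.9 and 37.6 in those of KO hosts (interaction 3.99, limma adjusted p = 0.00157). With the larger difference in KO hosts, the lower member Serpinf1, which encodes the secreted factor PEDF, had 139, 69.8 and 215 in dormant and 297, 259 and 235 in growing libraries of WT hosts, and 7.74, 0.51 and 20.5 in dormant and 232, 201 and 197 in growing libraries of KO hosts (interaction −3.97, limma adjusted p = 0.0374, which lay between 0.00807 and 0.0995 over 21 settings and was called in 7 of them). Host and library batch cannot be told apart in these values.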

How the data were processed

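RNA of sorted D2A1 tumor cells was sequenced in 12 libraries, 3 for each of dormant and growing cells from WT and KO hosts, grouped by the sample labels. Per the submitters' processing notes, reads were converted with bcl2fastq 2.20, trimmed with cutadapt 1.18, aligned to mm10 with STAR 2.5.2b and quantified with RSEM 1.3.3, and DESeq2 is also named there. The study's methods name earlier versions of cutadapt and RSEM, and which were used is not settled here. The library kit is TruSeq mRNA in the labels but Smart-seq2 in the methods, and strand is not given in the sources used here. The authors deposited the values as TPM, which keep no depth, so that no counting error could be given. A further 30 columns of the same table match no sample here and were not used.

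From these values log2(TPM + 1) was computed. The rule for the set needed no test. Genes reaching 1 TPM in 3 or more libraries were fitted in limma 3.58.1 (R 4.3.3) with all 4 groups in 1 model and a mean-dependent variance prior, with Benjamini-Hochberg adjustment over all tested genes, and a call needed an adjusted p below 0.05 and a size of at least 1. The fit was tested on simulated data. Tables and plots were made with Python 3.11.15, pandas 2.3.3 and matplotlib 3.10.9. Coordinates are from GENCODE M21 (GRCm38) and promoter windows from RefSeq (GRCm38.p6).

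The members, the 24 programme lists, the 15 cell type lists and the tests were chosen with earlier results of these data known. Genes were named by rule: the 12 higher and 12 lower members with the largest value of the smaller of their differences in both hosts; up to 3 members in each direction of each list; 2 genes on each side of the size threshold; up to 3 members in each direction with the largest called interaction; and dormancy regulators. Of the lower members so chosen, 2 are not reported here. Other members are named from their lists, from runs of neighbours or after their values were seen. Named genes that overlap another gene, such as Kif22, Cd52, Ccl6, Cdc20, Anapc15 and Mthfd2, are uncertain to that extent. Alternatives were other pseudocounts, scalings, filters and size thresholds, array weights, fitting 1 host at a time, blocking on the replicate number and leaving out each library.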

Additional observations from a re-analysis of the deposited data

Results flagged for a closer look

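The size of the state difference differed between hosts by the limma interaction (KO minus WT hosts) for 38 of the 705 members (5.39%). Adjustment was by Benjamini-Hochberg over all tested genes, of which 1312 of 13002 (10.1%) were called. The rule keeps genes with the same direction in both hosts, so the lower share among members is not a result. Among the named genes the interaction was called for the 12 below. Host and library batch cannot be told apart for any of them.

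The larger difference lay in WT hosts for the satellite-type genes Gm10801 (interaction −9.43), Gm10800 (−8.97) and Gm26870 (−8.64), for the lower members Anapc15 (4.05), Abhd5 (3.99) and Mthfd2 (2.88), and for the higher members Ccl8 (−3.84), C1qc (−2.80) and C1qa (−2.62). It lay in KO hosts for the lower members Serpinf1 (−3.97) and Phgdh (−2.94) and for the higher member Tmsb4x (1.21). The 3 satellite-type genes, Anapc15 and Abhd5 were called under all 21 settings. The limma adjusted p was 0.0115 for Ccl8 (0.000746 to 0.113 over the settings) and 0.0105 for C1qc (0.00705 to 0.0775), each lost with array weights. It was 0.00174 for Tmsb4x (0.00112 to 0.0439), where quantile normalization left a size below the threshold of 1.

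The limma adjusted p of Phgdh was 0.0191 (0.00523 to 0.0573), and the call was lost with quantile normalization and without growing WT replicate 3 or growing KO replicate 1. That of C1qa was 0.0251 (0.0155 to 0.10), and the call was lost under 8 settings, 6 of them single libraries left out: dormant KO replicates 1 and 3, growing WT replicates 2 and 3, and growing KO replicates 1 and 2, with limma adjusted p of 0.0501 to 0.0663. That of Mthfd2 was 0.0293 (0.00239 to 0.206), called under 10 of 21 settings, and 7 of the left-out libraries ended the call (limma adjusted p of 0.0616 to 0.0792). That of Serpinf1 was 0.0374 (0.00807 to 0.0995), called under 7 of 21 settings, and 9 of the left-out libraries ended it (limma adjusted p of 0.0508 to 0.088).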

How the results depend on the processing

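The rule puts every dormant library of a member beyond every growing library of its host. A changed pseudocount or a left-out library therefore cannot turn a direction. Under median-ratio scaling, which could, all 152 higher and 553 lower members kept their direction, and 152 and 311 still met the rule. Under quantile normalization 152 higher and 547 lower members kept their direction, and 139 and 336 still met the rule. Of 498 values of named differences under alternatives, 62 moved beyond the spread between replicates. The sign changed for 0 of them, but with other pseudocounts and left-out libraries the rule allowed no other outcome. The size of the set was less stable. With quantile normalization it held 407 higher genes, and with a size threshold of 2 it held 71 higher and 191 lower genes. It held 368 lower genes with a pseudocount of 5 and 314 with median-ratio scaling. Leaving out 1 library gave 155 to 268 higher and 599 to 869 lower genes. No overlap is easier to meet with 1 library fewer, so these rises are partly built in. Of the members themselves, 143 to 151 higher and 489 to 541 lower ones still met the rule. The limma calls in WT hosts were 489 higher and 478 lower with quantile normalization, 137 higher with only the groups compared, 67 higher and 243 lower with array weights, and 441 lower with no filter. Without 1 library they lay between 115 and 430 higher and between 331 and 1500.0 lower, and each of the 6 WT libraries moved at least 1 of these counts by more than 1.5 times, with dormant WT replicate 1 and all 3 growing WT replicates moving both. Those in KO hosts were 663 lower with median-ratio scaling, 1877 with only the groups compared and 2182 with array weights, and 875 to 1821 lower and 882 to 1302 higher without 1 library. The interaction was called for 870.0 to 1950.0 genes without 1 library (870.0 without growing WT replicate 3). Among members it was called for 22 with array weights and for 19 to 82 without 1 library (82 and 62 without dormant WT replicates 1 and 2, 24 and 19 without growing WT replicates 1 and 3, and 23, 22 and 25 without growing KO replicates 1, 2 and 3). Median-ratio scaling moved the median difference of all tested genes from −0.322 to 0.0856 in KO hosts, and quantile normalization moved it from −0.354 to 0.0383 in WT hosts. The cause of these shifts was not tested. The deviations of same-numbered dormant and growing libraries had correlations between −0.0123 and 0.0206. In KO hosts each library correlated best with its own number, and in WT hosts replicate 3 did (0.0142). Such small values cannot tell whether a number stands for a shared animal, and the labels do not say. With the replicate block the calls were 178 higher and 573 lower in WT hosts and 1016 and 1100.0 in KO hosts. The interaction was then called for 1048 genes, 28 of them members. Depth is unknown, so a TPM of 0 sets no upper limit on a gene's level.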
